A study of Mus musculus with 6 samples.

Results

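Platelet-derived growth factor (PDGF) signalling was represented by 6 genes, the ligands Pdgfa, Pdgfb, Pdgfc and Pdgfd and the receptors Pdgfra and Pdgfrb. They were taken as every probe set whose gene symbol in the platform annotation equals one of these names, which gave 14 of the 45037 probe sets tested, 9 for ligands and 5 for receptors, or 6 of 18161 genes. No filter on low values was applied, so all 14 were measured and tested. PDGF ligands are secreted dimers that bind a pair of receptor tyrosine kinases. The A and C chains act mainly through PDGF receptor alpha, the B chain through both receptors and the D chain mainly through PDGF receptor beta, and the C and D chains are secreted in a latent form that a protease must cut. In the developing gut, Pdgfa is known as a signal from the epithelium to Pdgfra-positive mesenchymal cells that gather into clusters below the forming villi, while Pdgfb from endothelium is known to recruit Pdgfrb-positive pericytes to vessels.

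Both tissues came from the small intestine, duodenum to cecum, of embryos of C57BL/6 dams at embryonic stage E18.5, with no genetic change or treatment named. A cold, enzyme-free incubation of 9 hours in Cell Recovery Solution loosened the epithelium, which was then collected apart from the mesenchyme. Each array was hybridised with RNA of 1 pool of tissue from 3 embryos, and there were 3 arrays of epithelium (A, B and C) and 3 of mesenchyme (A, B and C). The submitters had made 6 pools per tissue and kept those 3 that looked purest by RT-PCR for Vil1, Prkg2, Vim, Madcam1 and Actg2. The labels do not say whether pools share embryos, so p-values bear only on these pools, which were chosen for purity. Those from limma, the linear model used here, also draw on the spread of all probe sets.

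Expression was read on an Affymetrix whole-genome mouse array with several short probes per probe set, and values are on the log2 scale. Differences are given as mesenchyme minus epithelium with the standard error (SE) from limma and 3 arrays per tissue. A probe set or gene was called at an adjusted p under 0.05 with a log2 difference of at least 1, and a gene was represented by its brightest probe set. The number of arrays limits the precision. Each probe set responds to its transcript with its own strength, so that levels were compared between tissues for the same probe set and never between probe sets. The array medians were 8.1 to 8.7, and the mean of 27 probe sets for bacterial transcripts, used here as a mark of signal without target, was 5.87 to 6.25 per array, with single values from 4.9 to 8.3. The tissue labels held against the markers: all 7 measured markers of gut epithelium were higher in the epithelium and all 8 of stromal fibroblasts and all 7 of smooth muscle in the mesenchyme, though Vil1, Vim and Actg2 among them had served to choose the pools. Of all 18161 genes, 24.1% were called, 15.9% as higher in the mesenchyme and 8.19% as higher in the epithelium, and the median difference was 0.17.

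Both receptor genes and 2 of the 4 ligand genes, Pdgfb and Pdgfd, were higher in the mesenchyme, and no PDGF gene was higher in the epithelium. Pdgfa, the ligand known as an epithelial signal, was measured at like levels in both tissues. Among probe sets, 9 of 14 were called, all as higher in the mesenchyme, where 21.5% of all probe sets were called and 15.5% were called in that direction. All 5 receptor probe sets were among them, and 4 of the 9 ligand probe sets. In 11 of the 14, every mesenchymal array lay above every epithelial array, against 29.3% of all probe sets. The median difference was 2.97 for receptor probe sets, 0.77 for ligand probe sets and 0.17 for all probe sets. In bulk tissue, fewer cells of a type and less RNA per cell cannot be told apart.

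**Figure D1:**
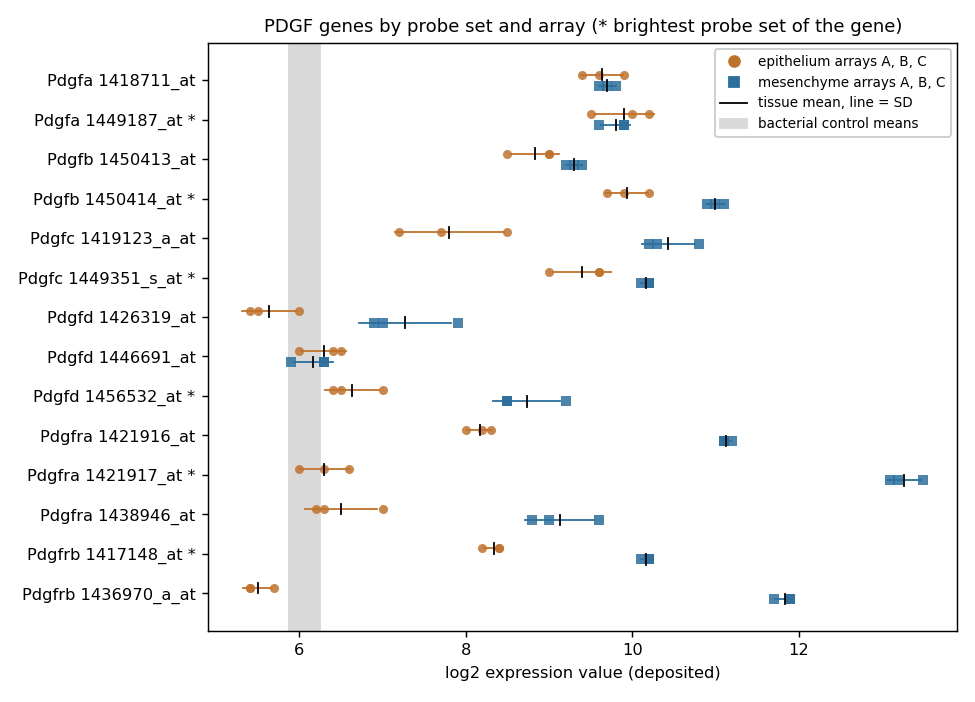
Deposited log2 expression values of the 14 PDGF probe sets. Each point is 1 array (3 of epithelium, 3 of mesenchyme), the tick is the tissue mean, the line is the SD and the grey band spans the array means of the bacterial control probe sets. The arrays of the tissues overlap for both probe sets of Pdgfa and for Pdgfd 1446691_at, and are separate for the other 11 probe sets.

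The receptor Pdgfra, which binds the A, B and C chains, differed most. Probe set 1421917_at stood at 6.0, 6.6 and 6.3 in epithelial pools A, B and C, and at 13.5, 13.2 and 13.1 in the mesenchymal pools. The mesenchymal values were among the brightest of each array (percentiles 99.1 to 99.3), whereas the epithelial mean lay 0.29 above the bacterial controls. The difference was 6.97 ± 0.23 (SE; adjusted p = 1.75e-23 in limma), a 125-fold ratio of the mean levels, and 0.033% of all probe sets differed by more in either direction. With epithelial values this close to the controls, the ratio depends on the signal without target.

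The other probe sets of Pdgfra gave smaller differences in the same direction. Probe set 1421916_at read 8.2, 8.0 and 8.3 in the epithelial pools, and 11.2, 11.1 and 11.1 in the mesenchymal pools, a difference of 2.97 ± 0.23 (adjusted p = 9.48e-14). Probe set 1438946_at read 6.2, 7.0 and 6.3 against 9.6, 8.8 and 9.0, a difference of 2.63 ± 0.25 (adjusted p = 3.98e-11). For all 3 probe sets the arrays of the tissues were far apart, but the sizes spanned 4.33 log2 units within this gene, with 2 of the epithelial means within 0.49 of the controls. The places of the probes within the transcript were not analysed here.

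Pdgfrb, the receptor known from pericytes and smooth muscle, was also higher in the mesenchyme by both of its probe sets. The brighter one on average, 1417148_at, read 8.2, 8.4 and 8.4 in the epithelial pools, and 10.2, 10.2 and 10.1 in the mesenchymal pools. Its difference was 1.83 ± 0.22 (adjusted p = 1.34e-08), a 3.56-fold ratio. Probe set 1436970_a_at read 5.4, 5.4 and 5.7 in the epithelial pools, with a mean 0.51 below the bacterial controls, against 11.9, 11.9 and 11.7 in the mesenchymal pools. Its difference was 6.33 ± 0.23 (adjusted p = 7.29e-23), but with an epithelial level not above the controls its size is set by signal without target. The mesenchymal mean lay 5.74 above the controls. No epithelial array reached a mesenchymal one by either probe set, and the differences lay 4.50 log2 units apart. This span depends in part on the low epithelial level of 1436970_a_at and in part on the mesenchymal readings. Its cause was not tested. How far the receptors stood from each other thus depended on the probe set taken. By the brightest one the difference was 6.97 for Pdgfra and 1.83 for Pdgfrb, and by the mean over all probe sets of the gene it was 4.19 and 4.08.

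**Figure D2:**
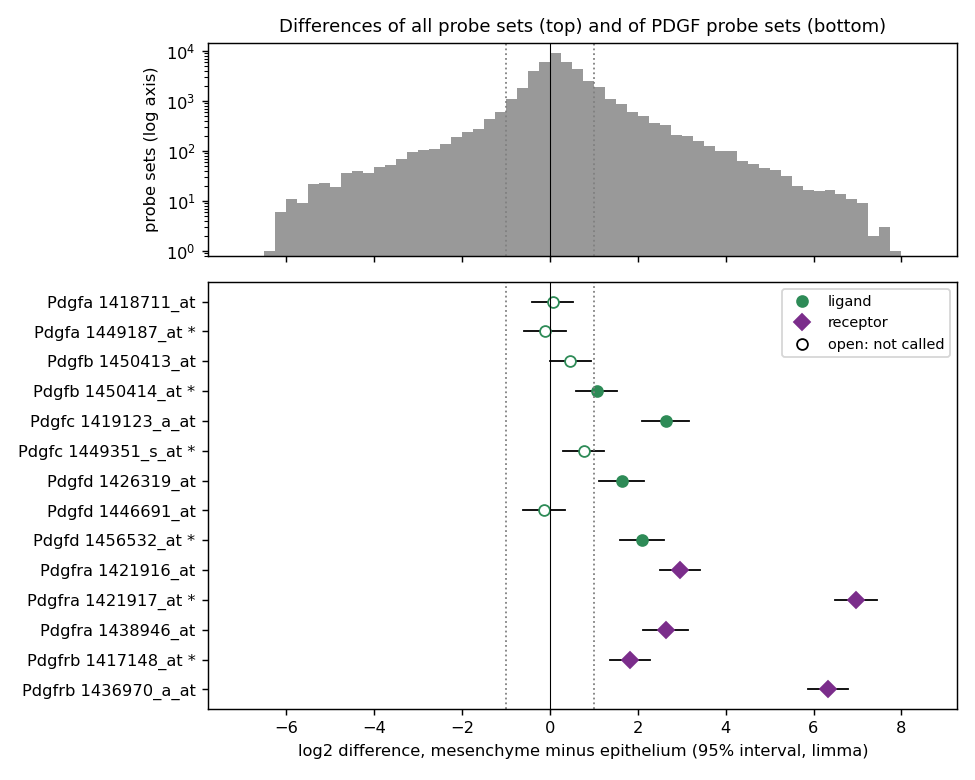
Log2 differences, mesenchyme minus epithelium. The upper panel counts all 45037 probe sets (log axis), and the lower panel shows the 14 PDGF probe sets (* marks the brightest of a gene) with 95% intervals from limma, with dotted lines at 1 in either direction. All 5 receptor probe sets lie beyond the right line, from 1.83 to 6.97, and the ligand probe sets lie between -0.13 and 2.63.

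Pdgfa, the A chain, did not separate the tissues. Its brighter probe set 1449187_at read 9.5, 10.0 and 10.2 in the epithelial pools, and 9.9, 9.9 and 9.6 in the mesenchymal pools, a difference of -0.10 ± 0.24 (95% interval -0.58 to 0.38, adjusted p = 0.782). Probe set 1418711_at read 9.4, 9.9 and 9.6 against 9.7, 9.8 and 9.6, a difference of 0.07 ± 0.23 (95% interval -0.40 to 0.53, adjusted p = 0.853). The arrays overlapped by both probe sets, and the values lay 3.61 to 3.89 above the bacterial controls in both tissues. The intervals leave out a 2-fold difference in either direction under the deposited scaling, and they do not show equal levels. The sign changed with the scaling. Both probe sets were higher in the epithelium after quantile normalization, with equal medians and after cyclic loess. The sizes were 0.25, 0.23 and 0.21 for 1418711_at, and 0.42, 0.40 and 0.36 for 1449187_at, none of them called. With equal spike-in controls, which were lowest in mesenchyme B (9.80), both were higher in the mesenchyme, 1418711_at by 0.33 and 1449187_at by 0.16. Beside these values, the summed level of the 7 epithelial markers was 16.04 to 16.44 across epithelial arrays, against 11.90 to 12.51 across mesenchymal arrays (log2 of the linear sum).

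Pdgfb, the B chain, was higher in the mesenchyme by 1 of its 2 probe sets. Probe set 1450414_at read 9.7, 10.2 and 9.9 in the epithelial pools, and 11.0, 11.1 and 10.9 in the mesenchymal pools, a difference of 1.07 ± 0.23 (adjusted p = 2.35e-04). Probe set 1450413_at read 8.5, 9.0 and 9.0 against 9.2, 9.3 and 9.4, a difference of 0.47 ± 0.23 that was not called (95% interval -0.00 to 0.93, adjusted p = 0.114). All mesenchymal arrays lay above all epithelial arrays by both. The call sat at the limit of size and ended after quantile normalization (0.86), with equal medians (0.77), after cyclic loess (0.88), without epithelium A (0.95) and in the mean of both probe sets (0.77). Markers of endothelium, a known source of the B chain, moved with it: 7 of 8 were higher in the mesenchyme, led by Plvap (5.60) and Tek (4.50), and their summed level was 11.91 to 12.27 in epithelial arrays, against 14.51 to 14.76 in mesenchymal arrays. Their part in the Pdgfb difference was not tested. Of 5 markers of megakaryocytes and platelets, another known source, only Pf4 was called (4.33), a share of 20.0% that is close to the 24.1% of all genes. The other 4 differed by -0.20 to 0.97, and the summed levels were 11.10 to 11.41 and 12.14 to 12.31.

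Pdgfc, the C chain, gave probe sets of unequal size. Probe set 1419123_a_at read 7.2, 8.5 and 7.7 in the epithelial pools, and 10.8, 10.3 and 10.2 in the mesenchymal pools, a difference of 2.63 ± 0.26 (adjusted p = 1.30e-10). The brighter probe set on average, 1449351_s_at, read 9.0, 9.6 and 9.6 against 10.2, 10.1 and 10.2, a difference of 0.77 ± 0.23 (95% interval 0.29 to 1.24, adjusted p = 0.00813). The arrays did not overlap by either probe set, and the second passed the limit on p but not that on size, so that Pdgfc was not called as a gene. It was called with equal spike-in controls (1.03) and in the mean of both probe sets (1.70). The call of 1419123_a_at held under all 14 alternatives applied to it, with differences from 2.33 to 2.98.

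Pdgfd, the D chain, was higher in the mesenchyme by 2 of its 3 probe sets. Probe set 1456532_at read 6.4, 7.0 and 6.5 in the epithelial pools, and 9.2, 8.5 and 8.5 in the mesenchymal pools, a difference of 2.10 ± 0.24 (adjusted p = 4.36e-09) and a 4.29-fold ratio. Probe set 1426319_at read 5.4, 6.0 and 5.5 against 7.9, 7.0 and 6.9, a difference of 1.63 ± 0.25 (adjusted p = 1.75e-06). Mesenchyme A was the highest array by both. Probe set 1446691_at read 6.0, 6.5 and 6.4 against 5.9, 6.3 and 6.3, a difference of -0.13 ± 0.23 (adjusted p = 0.706). Its arrays overlapped and its means lay 0.29 and 0.07 above the bacterial controls, in the epithelium and the mesenchyme, so that it gave little or no signal above those controls in either tissue. The epithelial means of the other probe sets lay 0.62 above (1456532_at) and 0.38 below (1426319_at, -0.38) the controls, so that the sizes of these differences depend on signal without target too.

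The sequence around the start of transcription is shown for the 4 PDGF genes with a window in the RefSeq tables used here (GRCm38.p6), since these genes range from no difference to the largest one in the family. Each window runs 5′ to 3′ on the strand of the gene, from 250 bases before the start to 50 after it. Capitals mark a TATA box (TATAAA) or a GC box. The latter is GGGCGG, and reads CCGCCC where it lies on the other strand. The CCAAT box was searched too, on both strands like the others, and none of the windows held it. Pdgfa had a second window, not printed, at chr5:138994232-138994531 on the minus strand.
Pdgfa, chr5:138994895-138995194, minus strand: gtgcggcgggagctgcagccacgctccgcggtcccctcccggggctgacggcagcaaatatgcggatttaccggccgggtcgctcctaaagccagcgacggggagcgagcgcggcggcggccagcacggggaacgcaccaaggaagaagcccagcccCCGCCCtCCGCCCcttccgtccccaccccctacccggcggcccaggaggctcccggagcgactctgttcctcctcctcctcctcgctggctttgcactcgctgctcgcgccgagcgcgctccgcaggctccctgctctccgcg
Pdgfc, chr3:81036166-81036465, plus strand: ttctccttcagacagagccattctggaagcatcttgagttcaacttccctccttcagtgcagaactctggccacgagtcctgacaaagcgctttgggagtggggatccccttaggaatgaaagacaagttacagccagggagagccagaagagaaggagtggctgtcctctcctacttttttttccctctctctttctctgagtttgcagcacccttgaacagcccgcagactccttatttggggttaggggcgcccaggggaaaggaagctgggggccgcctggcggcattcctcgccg
Pdgfd, chr9:6168236-6168535, plus strand: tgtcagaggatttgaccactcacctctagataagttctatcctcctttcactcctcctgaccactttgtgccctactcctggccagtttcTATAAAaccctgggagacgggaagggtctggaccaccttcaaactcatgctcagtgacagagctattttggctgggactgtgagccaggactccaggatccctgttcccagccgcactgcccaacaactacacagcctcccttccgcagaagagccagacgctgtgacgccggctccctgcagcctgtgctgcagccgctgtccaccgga
Pdgfra, chr5:75152001-75152300, plus strand: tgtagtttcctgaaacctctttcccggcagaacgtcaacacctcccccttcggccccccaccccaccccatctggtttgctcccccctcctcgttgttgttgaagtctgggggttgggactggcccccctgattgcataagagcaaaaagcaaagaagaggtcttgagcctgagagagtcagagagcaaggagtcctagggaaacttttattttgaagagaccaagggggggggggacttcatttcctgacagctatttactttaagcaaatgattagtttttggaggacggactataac

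The Pdgfa windows stood apart in base composition from the others. The printed one held 73.3% G and C and 37 CpG dinucleotides, more than 94.4% of 32841 windows of the same length, and the other held 67.0% and 24. The windows of Pdgfc (55.0%, 8 CpG), Pdgfd (56.7%, 8 CpG) and Pdgfra (51.0%, 5 CpG) lay close to the medians over all windows, 52.7% and 7. The printed Pdgfa window had GC boxes at -93 and -86 from the start, the other had 1 at -60, and a GC box was found in 35.7% of all windows. Pdgfd had a TATA box at -160 (13.6% of windows hold TATAAA), and Pdgfc and Pdgfra held none of the 3 motifs. CCAAT is found in 37.4% of all windows. These matches describe letters and not binding.

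The ligand side was then set against the receptor side within each array, as the log2 value of one gene's brightest probe set minus that of the other. As the probe sets differ in strength, the value itself has no meaning as a ratio of transcripts, and only its change between tissues was examined. Changes of a pair are given as epithelium minus mesenchyme, so that a positive one means that the first gene stood higher against the second in the epithelium. Pdgfa minus Pdgfra was 3.5, 3.4 and 3.9 in epithelium A, B and C, against -3.6, -3.3 and -3.5 in mesenchyme A, B and C, a change of 7.07. Pdgfc minus Pdgfra was 3.0, 3.0 and 3.3 against -3.3, -3.1 and -2.9, a change of 6.20. For both pairs the balance lay towards the ligand in every epithelial array, relative to the mesenchymal arrays. These changes restate the differences given above and are no separate result on the ligands. Pdgfra was lower in the epithelium by 6.97, while Pdgfa was not called and Pdgfc was lower there by 0.77. With epithelial Pdgfra 0.29 above the controls, the sizes depend on signal without target. Pdgfb minus Pdgfrb was 1.5, 1.8 and 1.5 against 0.8, 0.9 and 0.8, a change of 0.77 in the same direction. Pdgfd minus Pdgfrb was -1.8, -1.4 and -1.9 against -1.0, -1.7 and -1.6, with overlapping arrays and a change of -0.27, the first gene standing slightly lower against the second in the epithelium. Between ligands, Pdgfa minus Pdgfc changed by 0.87, and between receptors, Pdgfra minus Pdgfrb changed by -5.13, with Pdgfra lower against Pdgfrb in the epithelium, and neither pair overlapped.

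In exact permutation tests (two-sided, 3 against 3 arrays), 5 of these 6 pairs gave p = 0.10, the smallest p the design allows, and p = 0.12 after adjustment over the 6 pairs. The pair of Pdgfd and Pdgfrb gave p = 0.50 (0.50 adjusted) in the same exact test. No pair could have passed 0.05. Taken over the mean of all probe sets of each gene, the changes (epithelium minus mesenchyme) were 4.21 for Pdgfa and Pdgfra, 2.49 for Pdgfc and Pdgfra, 3.32 for Pdgfb and Pdgfrb, 2.88 for Pdgfd and Pdgfrb, 1.72 for Pdgfa and Pdgfc and -0.11 for Pdgfra and Pdgfrb. The change of the Pdgfd and Pdgfrb pair turned its direction with this choice, and that between the receptors nearly vanished.

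**Figure D3:**
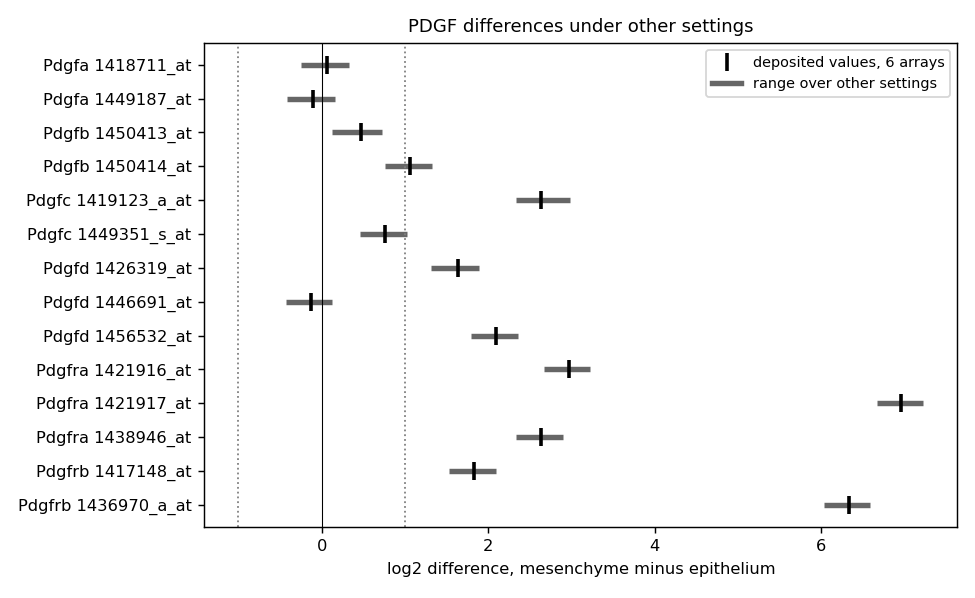
Log2 differences of the 14 PDGF probe sets, mesenchyme minus epithelium, in the deposited values (black ticks) and their range over the other settings tried (grey bars), with dotted lines at 1 in either direction. The bars of the 5 receptor probe sets stay beyond the right line, from 1.53 upward, while those of Pdgfa and of Pdgfd 1446691_at cross 0 and those of Pdgfb 1450414_at and Pdgfc 1449351_s_at cross the line.

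Genes whose products act on PDGF ligands or bind them went both ways. Of 10 measured genes, 5 were higher in the mesenchyme, 2 were higher in the epithelium and 3 were not called. The shares over all genes were 24.1% called, 15.9% as higher in the mesenchyme and 8.19% as higher in the epithelium. The median difference was 0.75 against 0.17 for all genes. The mesenchymal side held Sparc, a matrix protein that binds the B chain (5.10 ± 0.23, adjusted p = 2.96e-20), and Nrp1, a co-receptor (4.23 ± 0.23). It also held Pcsk6, a proprotein convertase (3.23 ± 0.24), and Plat, tissue plasminogen activator, which cuts the latent C chain (2.70 ± 0.25, adjusted p = 1.06e-11). The epithelial level of Plat was 7.57 ± 0.55 and the mesenchymal one 10.27 ± 0.06 (SD, n = 3). The epithelial side held another convertase, Pcsk5 (-3.50 ± 0.24, adjusted p = 3.37e-15), and St14, the membrane protease matriptase, reported to act on the latent D chain (-1.73 ± 0.23). In the mean of probe sets, the size of the difference was 1.12 for Plat and 1.41 for Pcsk5, and both stayed called. Furin, the convertase known to process the A and B chains, was at 9.83 ± 0.29 and 9.73 ± 0.15 and was not called.

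Receptors related to those of PDGF, and the ligands of these receptors, were called in 1 direction alone. Of 15 measured genes, 8 were higher in the mesenchyme, none was higher in the epithelium and 7 were not called, with a median difference of 1.20. Of all genes, 24.1% were called, 15.9% as higher in the mesenchyme, and the median was 0.17. Kit, the stem cell factor receptor that interstitial cells of Cajal carry, stood at 7.23 ± 0.40 in epithelial pools, against 10.50 ± 0.36 in mesenchymal pools (SD, n = 3), a difference of 3.27 ± 0.25 (adjusted p = 6.27e-14). Its ligand Kitl was also higher in the mesenchyme (1.80 ± 0.25). The vascular receptors Flt4 (2.97 ± 0.24) and Kdr (2.13 ± 0.22) and the Flt4 ligand Vegfc (1.80 ± 0.26, and 2.89 in the mean of probe sets) followed the same direction. Pdgfrl, named for its likeness to the PDGF receptors, differed by 0.63 and was not called.

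Intracellular transducers of the PDGF receptors were mostly not called. Of 28 measured genes, 7 were higher in the mesenchyme and 21 were not called, with a median of 0.33, a share close to the 24.1% of all genes. The largest were the Src-family kinase Fyn (2.27 ± 0.24, adjusted p = 3.35e-10), the phosphoinositide 3-kinase subunits Pik3r1 (1.63 ± 0.23) and Pik3ca (1.50 ± 0.25) and the phospholipase Plcg1 (1.33 ± 0.23), which was no longer called in the mean of its probe sets (0.51). The count was 12 with equal spike-in controls and 5 after quantile normalization, with equal medians and after cyclic loess. Of 18 early response genes of growth factors, which many receptors share, 6 were higher in the mesenchyme, 1 in the epithelium and 11 were not called, with a median of 0.27. The shares over all genes were 15.9% as higher in the mesenchyme and 8.19% as higher in the epithelium. Those higher in the mesenchyme were led by feedback inhibitors of kinase signalling, the phosphatase Dusp1 (3.27 ± 0.28, adjusted p = 2.51e-12), Spry2 (2.87 ± 0.25) and Spry4 (2.47 ± 0.23), followed by Ier3 (1.73 ± 0.24). In the mean of probe sets Spry2 differed by 1.68 and stayed called. The level of Dusp1 was 7.10 ± 0.90 in epithelial pools, a wide spread, against 10.37 ± 0.06 in mesenchymal ones (SD, n = 3). Zfp36, which promotes decay of mRNA, was higher in the epithelium (-1.10 ± 0.23, adjusted p = 1.70e-04), a call that ended with equal spike-in controls and without epithelium B.

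**Figure D4:**
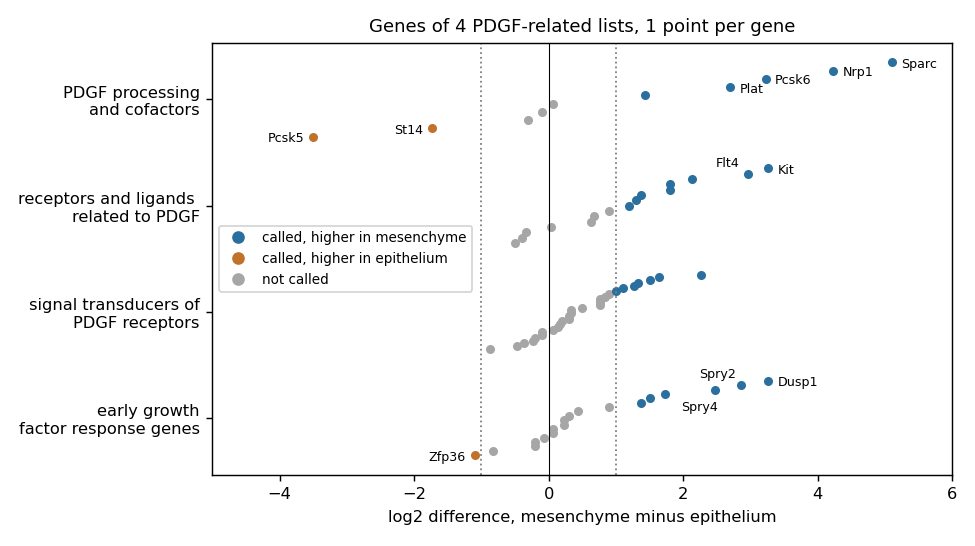
Log2 differences, mesenchyme minus epithelium, of the genes in the 4 lists around PDGF signalling, 1 point per gene by its brightest probe set. Dotted lines mark 1 in either direction. The lists of processing genes and of early genes hold called genes on both sides, and the other lists hold them on the mesenchymal side alone.

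Most markers of fibroblasts, villus cluster mesenchyme, pericytes and smooth muscle, cell types known to carry PDGF receptors, moved with Pdgfra and Pdgfrb. Leukocytes and enteric neurons and glia are given beside them as other cells of the tissue. The 8 fibroblast markers, led by Col1a1 (7.20) and Col3a1 (7.17), had summed levels of 11.30 to 11.58 in the epithelial and 16.64 to 16.71 in the mesenchymal arrays. Subepithelial and villus cluster mesenchyme, where Pdgfra is known to be high, had 10 markers. Of these, 6 were higher in the mesenchyme, led by Ptch1 (4.80) and Bmp4 (4.53), and 4 were not called. The latter were Foxf1 (0.80), Foxl1 (0.53), Bmp7 (0.00) and Wnt5a (-0.20). Other probe sets were called as higher in the mesenchyme for Foxf1 and Wnt5a, and as higher in the epithelium for Bmp7. The sums of this list were 11.94 to 12.40 and 14.38 to 14.67. Of 8 pericyte markers, 7 were higher in the mesenchyme, led by Rgs5 (6.40) and Kcnj8 (3.60), with sums of 11.44 to 11.77 and 14.46 to 14.62. Smooth muscle markers, led by Actg2 (7.23) and Myh11 (6.57), had sums of 11.66 to 11.79 and 16.61 to 16.65. Of 6 leukocyte markers, 5 were higher in the mesenchyme, led by C1qb (4.80) and Ptprc (4.40), with sums of 10.47 to 10.98 and 13.75 to 13.91. Of 5 markers of enteric neurons and glia, the neuronal genes Uchl1 (5.17) and Elavl4 (4.00) were higher in the mesenchyme and the other 3 were not called, with sums of 10.94 to 11.22 and 12.68 to 12.81. In the mean of probe sets, Ptch1 differed by 2.88, Myh11 by 3.85 and Ptprc by 2.37, and all 3 stayed called. The sums did not overlap between the tissues for any of the 9 lists, but a linear sum follows its brightest genes. The megakaryocyte sums were apart too, with only Pf4 called. Over all genes, 24.1% were called, 15.9% as higher in the mesenchyme. In 29.3% of all probe sets, every mesenchymal array lay above every epithelial array. Which of these cells gave the receptor signal was not tested.

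**Figure D5:**
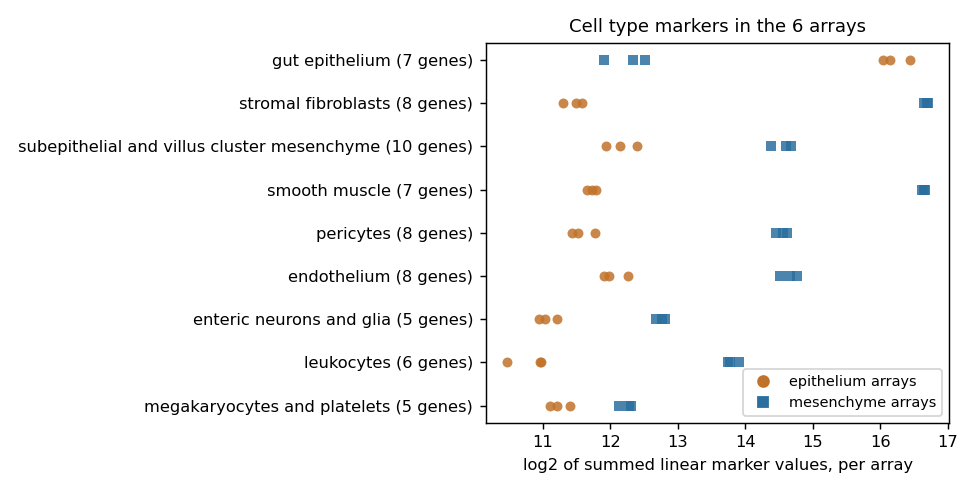
Summed level of the marker genes of 9 cell types in each of the 6 arrays, as log2 of the sum of linear values. Markers of gut epithelium are at 16.04 to 16.44 in the epithelial arrays and 11.90 to 12.51 in the mesenchymal arrays, and the other 8 lists are higher in the mesenchymal arrays.

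The genes whose profile over the 6 arrays was closest to that of each PDGF gene were found by Euclidean distance after each gene's mean was subtracted. Genes near by this measure have a like tissue difference by construction. The differences given for them are therefore no separate result, and shared regulation was not tested. For Pdgfra these were Fabp4 (distance 0.367), the endothelin receptor Ednrb (0.416), the collagen gene Col1a1 (0.518), the thrombin receptor F2r (0.518) and the collagen gene Col3a1 (0.560), with differences from 6.67 to 7.20. For Pdgfrb they were Chst1 (0.115), Ngfr, a neurotrophin receptor (0.115), Smoc1 (0.141), Ift80 (0.168) and Lama2, a laminin chain (0.168), with differences from 1.77 to 1.93. For Pdgfc they were Sf3b3 (0.115), Cbx5, Tnfaip8l2 and Trrap (0.122 each) and Rap1gds1 (0.141), with differences from 0.73 to 0.87. For Pdgfa they were Gm20199 (0.115), Caps2 (0.183), H2bc18 (0.187), 4921524L21Rik and Otx1 (0.200 each), none of which differed by more than 0.20 in size. The profile is that of the brightest probe set, and the difference of another probe set of the gene lay up to 4.33 (Pdgfra), 4.50 (Pdgfrb), 1.87 (Pdgfc) and 0.17 (Pdgfa) away from it.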

How the data were processed

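The deposited table gives each probe set a log2 value from RMA, a step by the authors that the submitters' processing notes name, with no version or setting given in the sources used here. Values are rounded to 0.1 and carry no detection calls. All 6 columns were used. Of 45101 probe sets, 64 controls were set aside. The platform annotation gave 1 symbol for 34945 of the others, updated to RefSeq names of GRCm38.p6, where 2 kept their own.

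All 45037 probe sets were fitted with limma 3.58.1 (lmFit and eBayes, R 4.3.3) as deposited, with tissue as the only term. Benjamini-Hochberg adjustment ran over all probe sets or, in the lists of genes, over 18161 genes. Adjusted p-values of PDGF probe sets are those over probe sets. A difference of at least 1 with an adjusted p under 0.05 was called. The spread of a probe set, with 4 residual degrees of freedom, was drawn towards a shared one with 31.7. The code was tested on simulated data. The members and the lists were chosen with earlier results of these data known. Named genes were all PDGF probe sets, up to 4 called genes per pathway list and direction with the largest differences (5 where the last were tied), the 2 largest per marker list and the 5 nearest profiles for 4 PDGF genes. Furin, Pdgfrl and the uncalled markers of villus cluster mesenchyme are named beyond this rule, with their values already known. The 6 pairs were tested by exact permutation. Alternatives were other scalings, a filter on dim probe sets, a variance trend, the letters as a block, each array left out, the mean of probe sets and no limit on size. The main fit did not pair arrays by letter. Deviations of arrays with the same letter correlated at -0.31, -0.15 and 0.12, and those with different letters at -0.25 to 0.36. With so few arrays per tissue, these values cannot decide whether pools with the same letter share embryos.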

Additional observations from a re-analysis of the deposited data

How the results depend on the processing

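The calls of Pdgfd, Pdgfra and Pdgfrb as genes held under all 15 alternatives, and that of Pdgfb under 10. Of these alternatives, adjusted p alone sets no limit on size and could not end a call. The variance trend, the replicate block and the filter on dim probe sets left the differences of these genes as they were. The count of called PDGF genes was 4 and ranged from 3 to 5 (3 to 4 with 1 array left out), and that of probe sets was 9 and ranged from 8 to 10 (8 to 9 with 1 array left out). As epithelium minus mesenchyme, Pdgfa 1418711_at turned from -0.07 to 0.25 (quantile normalization), 0.23 (equal medians), 0.21 (cyclic loess) and 0.05 (without epithelium A, with -0.20 to 0.05 over the arrays left out), and Pdgfa 1449187_at from 0.10 to -0.16 (equal spike-in controls) and -0.05 (without epithelium C, with -0.05 to 0.30). Pdgfd 1446691_at turned from 0.13 to -0.13 with equal spike-in controls, and the Pdgfd and Pdgfrb pair from -0.27 to 2.88 in the mean of probe sets. The cause was not tested. Of the transducers, 7 were called, with a range of 5 to 12 (12 with equal spike-in controls). Over all genes, 4380 were called, 7490 by adjusted p alone, as that sets no limit on size, and 4157 to 4764 with 1 array left out. With the letters as a replicate block, 4363 genes and the same number of PDGF genes, 4, were called, and no call of a PDGF gene changed.

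The scaling of the arrays moved the balance of all calls. The share higher in the mesenchyme was 66.0% in the deposited values, 53.0% after quantile normalization, 55.4% after cyclic loess, 49.4% with equal medians and 77.5% with equal spike-in controls, with shifts of the median of 0.27, 0.21, 0.30 and -0.26 (epithelium minus mesenchyme). The mean of the spike-in controls was 10.56 to 10.77 in 5 arrays but 9.80 in that of mesenchyme B. With 1 array left out, the pair changes (epithelium minus mesenchyme) ranged from 6.92 to 7.17 (Pdgfa and Pdgfra), 6.10 to 6.30 (Pdgfc and Pdgfra), 0.67 to 0.82 (Pdgfb and Pdgfrb), -0.42 to -0.05 (Pdgfd and Pdgfrb), 0.75 to 0.95 (Pdgfa and Pdgfc) and -5.25 to -5.03 (Pdgfra and Pdgfrb). The filter on dim probe sets (mean level under 7.33) left out Pdgfd 1426319_at and 1446691_at, which have no value there.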

Other observations

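Some genes near PDGF signalling, chosen after their values were seen, gave results that a gene list alone does not show. Csf1r, the receptor of macrophages and a relative of the PDGF receptors, was not called by any of its 3 probe sets. Probe set 1419872_at read 13.4, 13.8 and 13.5 in the epithelial pools, and 13.2, 13.1 and 13.2 in the mesenchymal pools, a difference of -0.40 ± 0.23 (mesenchyme minus epithelium, adjusted p = 0.176 in limma over probe sets), and the others differed by -0.37 and -0.43. Of 6 leukocyte markers, 5 were higher in the mesenchyme, where 15.9% of all genes were called in that direction. Their relation to Csf1r was not tested.

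For Csf1, Gab1, Ptpn1 and Srf, the brightest probe set was not called and another one was, as higher in the mesenchyme. For Srf, a transcription factor of early response genes and of muscle genes, 1418256_at differed by 0.30 ± 0.23 (adjusted p = 0.331) and 1418255_s_at by 2.57 ± 0.24 (adjusted p = 1.68e-11). Probe set 1418255_s_at read 8.1, 8.9 and 8.6 in the epithelial pools, and 11.1, 11.2 and 11.0 in the mesenchymal pools, with no overlap. The macrophage growth factor Csf1 differed by 0.90 (1448914_a_at), 1.97 (1460220_a_at, the called one), 0.23 (1425154_a_at) and 0.57 (1425155_x_at), the adaptor Gab1 by 0.90 (1417693_a_at), 1.80 (1417694_at, called) and 0.37 (1448814_at) and the phosphatase Ptpn1 by 0.33 (1438670_at) and 1.27 (1417068_a_at, called).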
